A study of Homo sapiens with 4 samples.

Results

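Entry into S phase is controlled in G1 by D cyclins, E cyclins, their kinases and the inhibitors of these complexes, and 10 genes of this system are described here. They are the D cyclins CCND1, CCND2 and CCND3, the E cyclins CCNE1 and CCNE2, the kinases CDK2, CDK4 and CDK6, and the CIP/KIP inhibitors CDKN1A (p21) and CDKN1B (p27). The genes were taken by their symbols, and all 10 were found among the 26364 rows of the count table. Of these, 9 passed the filter on low counts together with 14024 genes in all, and CCND2 did not.

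The data were RNA sequencing counts from SW480 and SW620, human colorectal cancer cell lines established from the primary tumour and a lymph node metastasis of the same patient. There were 4 groups with 1 library each: SW480 control, SW480 SHMT2 knockdown, SW620 control and SW620 SHMT2 knockdown. Knockdown was directed at SHMT2, the mitochondrial serine hydroxymethyltransferase that makes glycine and folate-bound carbon units from serine, with an shRNA switched on by doxycycline from a lentiviral TET-ON pLKO vector. The study describes the comparison cells as control shRNA cells and the labels name them only as control; whether they received doxycycline and which hairpin was sequenced is not stated in the sources used here. Each group was a single culture of 1 line, so no spread between cultures of a group could be measured.

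The libraries held 5530129 to 13774288 counts. Relative to the control of the same line, the depth of the knockdown library was 0.671 for SW480 and 2.49 for SW620. Levels are given as CPM, counts relative to the library total after TMM scaling, a method that sets the totals by the bulk of the genes. SHMT2 itself was at 277 CPM in SW480 control, 30.9 in SW480 knockdown, 688 in SW620 control and 47.6 in SW620 knockdown, which left 11.2% and 6.92% of the control level. Of 12 colorectal epithelial markers, CDX1 was at 0 counts in all 4 libraries, and CDH17, CEACAM5, VIL1 and LGR5 were at 3 counts or fewer in both SW480 libraries. In SW620, KRT20 had 1 count in control and 2 in knockdown, and CEACAM5 had 2 in control. The keratins KRT8 and KRT18 were abundant throughout, and 9 to 10 of 13 markers of immune, endothelial and fibroblast cells were at 3 counts or fewer in each library.

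In G1, growth signals raise the D cyclins, which bind CDK4 and CDK6 and begin the phosphorylation of the retinoblastoma protein. Freed E2F factors then switch on genes of DNA replication together with CCNE1 and CCNE2, whose products activate CDK2 and drive the cell into S phase. The CIP/KIP proteins p21 and p27 inhibit CDK2 complexes and also take part in the assembly of D cyclin complexes. CCND1 is a known oncogene, and in the colon its transcription is linked to Wnt and growth factor signalling.

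RefSeq promoter sequences on GRCh38.p14, from 250 bases before to 50 bases after a start site, were found for 6 of the 10 genes: CCND3, CCNE1, CDK4, CDK6, CDKN1A and CDKN1B. CCND1, CCND2, CCNE2 and CDK2 had no entry. Those of CDKN1A at chr6:36678464-36678763 (plus strand), CCNE1 at chr19:29811741-29812040 (plus strand) and CDK6 at chr7:92836524-92836823 (minus strand, the first of 2 start sites) are shown because these 3 genes differed most between the cell lines among those with an entry. Capitals mark GC boxes, the letters GGGCGG or CCGCCC.
CDKN1A: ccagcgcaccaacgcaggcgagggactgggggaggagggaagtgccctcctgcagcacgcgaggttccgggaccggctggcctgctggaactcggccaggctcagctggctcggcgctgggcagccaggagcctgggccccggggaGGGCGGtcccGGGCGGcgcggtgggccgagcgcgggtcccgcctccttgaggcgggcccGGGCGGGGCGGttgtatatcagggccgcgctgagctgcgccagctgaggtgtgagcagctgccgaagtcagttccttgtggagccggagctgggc
CCNE1: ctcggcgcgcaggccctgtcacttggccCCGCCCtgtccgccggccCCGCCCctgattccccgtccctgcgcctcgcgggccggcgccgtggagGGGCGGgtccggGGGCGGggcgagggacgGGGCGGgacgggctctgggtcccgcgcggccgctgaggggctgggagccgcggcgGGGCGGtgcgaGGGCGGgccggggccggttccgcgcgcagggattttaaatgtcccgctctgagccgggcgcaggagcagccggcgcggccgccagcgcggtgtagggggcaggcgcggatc
CDK6: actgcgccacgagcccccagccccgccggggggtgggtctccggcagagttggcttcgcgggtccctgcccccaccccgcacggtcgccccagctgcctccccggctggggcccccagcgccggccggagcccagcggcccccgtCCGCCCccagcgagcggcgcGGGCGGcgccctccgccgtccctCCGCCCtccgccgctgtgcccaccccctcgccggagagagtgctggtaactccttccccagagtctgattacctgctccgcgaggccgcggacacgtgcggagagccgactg

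The CCNE1 promoter held 7 GC boxes, that of CDKN1A held 4 and that of CDK6 held 3, with a GC content of 81.0%, 74.3% and 78.0%, against a mean of 57.5% over all promoters. A GC box was in 45.0% of 35116 promoters. The last 2 boxes of CDKN1A overlap by a base. The letters TTTGGCGC, TTTCCCGC and TTTCGCGC (E2F), TGAGTCA (AP-1), TGACGTCA (CRE) and CTTTGAT (TCF/LEF) were searched on both strands and matched in none of the 9 promoter windows of the 6 genes. They were in 2.74%, 4.95%, 1.85% and 2.62% of all promoters. Only these exact letters were searched, so other forms of a site, or sites outside the windows, would not be found. CCAAT was in 34.6% of all promoters and matched 3 times in the CDKN1B window and once in each of 2 of the 3 CCND3 windows. GC boxes were thus in CDKN1A and CCNE1, which were higher in SW480, and in CDK6, which was higher in SW620. They were also in CDK4, which held 3 and did not pass the test between the lines. CDKN1B held 1, the CCND3 windows held 5, 4 and 0, and the second CDK6 window held 0.

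Among the D cyclins, CCND1 fell in both cell lines and had by far the largest change of the 9 genes tested. CCND1, whose product is the main D cyclin of many epithelial cells, lies on the plus strand at chr11:69641087-69654474 (GRCh38). It had 9102 counts in SW480 control and 2314 in SW480 knockdown, or 948 and 349 CPM. SW620 gave 1184 counts in its control and 1129 in its deeper knockdown library, which are 217 and 83.9 CPM. The level in knockdown was thus 36.8% of control in SW480 (exact 95% binomial interval 35.2% to 38.6%) and 38.7% in SW620 (35.6% to 42.0%). These intervals, like all intervals for a single line below, cover counting error only. Across the lines, edgeR's quasi-likelihood fit gave a log2 fold change of -1.41 (SE 0.11) with a Benjamini-Hochberg adjusted p of 2.90e-36. Of the 14024 genes tested, only SHMT2 and UHRF1 had a smaller p. The test had the cell line as a term and 1 residual degree of freedom, so its p rests on a dispersion shared across genes. Without the cell line as a term the log2 fold change was -1.43 and the adjusted p was 1.00. LTO1 overlaps CCND1 on the opposite strand and had 110, 76, 116 and 310 counts in SW480 control, SW480 knockdown, SW620 control and SW620 knockdown. The use of strand in counting is not stated, so reads of such a pair of genes may not be told apart. In RNA from whole cultures, fewer cells with a transcript and less of it per cell cannot be told apart.

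CCND3 lies on the minus strand of chromosome 6 and encodes a D cyclin prominent in blood cells and also made in epithelium. It was at 53.8 CPM in SW480 control, 44.9 in SW480 knockdown, 98.5 in SW620 control and 94.4 in SW620 knockdown. Both knockdown libraries were below their controls, at 83.5% (72.2% to 96.5%) and 95.9% (86.6% to 106%). The log2 fold change of -0.15 (SE 0.13) did not pass edgeR's test, with an adjusted p of 0.88.

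CCND2, the other D cyclin, was close to absent. It had 1 count in SW480 control, 0 in SW480 knockdown, 4 in SW620 control and 54 in SW620 knockdown. The 0 allows up to 0.452 CPM at 3 counts, and the SW620 values were 0.733 and 4.01 CPM. In SW620 the ratio of knockdown to control was 5.47, with an exact interval of 2.02 to 20.8 that covers counting error only. With no filter on low counts, the fitted log2 fold change was 2.10 (SE 0.75, adjusted p = 0.25 in edgeR), and this fitted value depends on the prior count. The gene CCND2-AS1 overlaps it on the opposite strand and had 5 counts in SW620 knockdown and 0 elsewhere.

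**Figure D1:**
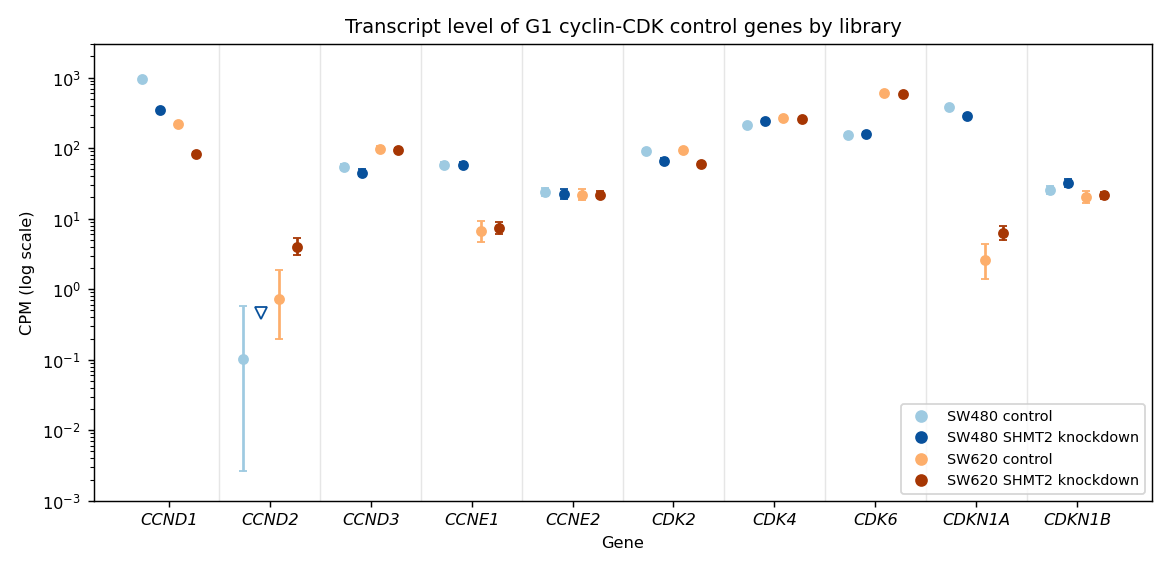
CPM of each gene in the 4 libraries on a log scale, with exact 95% Poisson intervals for counting error. The open triangle marks the limit at 3 counts for CCND2 in SW480 knockdown, where it had 0 counts. CCND1 and CDK2 are lower in the knockdown than in the control of the same line, while CDKN1A, CCNE1 and CDK6 separate mainly by cell line.

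Of the E cyclins, which bind and activate CDK2 late in G1, neither passed the test for knockdown. CCNE1 was at 58.4 CPM in both SW480 libraries and at 6.60 and 7.36 CPM in SW620 control and knockdown. The knockdown level was 99.9% of control in SW480 (87.6% to 114%) and 111% in SW620 (75.4% to 168%), where it rested on 36 and 99 counts. The log2 fold change was 0.04, with an approximate 95% interval of -0.29 to 0.38 (edgeR, adjusted p = 0.99). CCNE2 was at 24.1, 22.2, 22.0 and 21.8 CPM in SW480 control, SW480 knockdown, SW620 control and SW620 knockdown. It was the most even of the 10 genes across the libraries. Its log2 fold change was -0.07, with an interval of -0.42 to 0.28 (edgeR, adjusted p = 0.99), and it had 231, 147, 120 and 293 counts. Of the genes that overlap it on the opposite strand, NDUFAF6 had 133, 89, 113 and 179 counts and INTS8 had 896, 626, 317 and 886, more than CCNE2 in every library. Without strand in counting, the value of CCNE2 could hold reads of INTS8, which was not tested.

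Of the kinases, CDK2 fell in both cell lines and CDK4 and CDK6 did not pass the test. CDK2, the partner of E cyclins, lies on the plus strand at chr12:55966769-55972784. It was at 91.8 CPM in SW480 control, 65.6 in SW480 knockdown, 93.1 in SW620 control and 60.3 in SW620 knockdown. The controls of both lines were alike, and so were the knockdown libraries, with 71.5% of control left in SW480 (63.6% to 80.2%) and 64.7% in SW620 (57.9% to 72.5%). The log2 fold change was -0.56 (SE 0.13, adjusted p = 0.0027 in edgeR). In DESeq2 the adjusted p was 0.33 and with a filter of 50 counts it was 0.057, at log2 fold changes of -0.55 in each, so the call for CDK2 held in fewer settings than that for CCND1. PMEL overlaps CDK2 on the opposite strand and had 53, 25, 11 and 13 counts, against 882, 435, 508 and 811 counts of CDK2, in the order of libraries given above.

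CDK4, a partner of D cyclins, was at 211 CPM in SW480 control, 246 in SW480 knockdown, 268 in SW620 control and 257 in SW620 knockdown. It was above control in SW480 (117%, 109% to 125%) and close to it in SW620 (96.0%, 90.3% to 102%). Its fitted log2 fold change was 0.08, with an interval of -0.13 to 0.30 (edgeR, adjusted p = 0.96). TSPAN31, on the opposite strand, had 70 to 162 counts, against 1462 to 3461 counts of CDK4. CDK6, the other partner of D cyclins, was at 154 and 158 CPM in SW480 and at 611 and 577 CPM in SW620. Its knockdown level was 102% of control in SW480 (94.6% to 111%) and 94.4% in SW620 (90.6% to 98.3%). The log2 fold change was -0.03, with an interval of -0.23 to 0.18 (edgeR, adjusted p = 0.99).

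The CIP/KIP inhibitors did not pass the test, and CDKN1A lay in opposite directions in the cell lines. CDKN1A encodes p21, a well-known target of p53, and lies on the plus strand at chr6:36676460-36687339. It had 3629 counts in SW480 control and 1906 in SW480 knockdown, or 378 and 287 CPM. SW620 control gave only 14 counts and SW620 knockdown 85, which are 2.57 and 6.32 CPM. The knockdown level was 76.1% of control in SW480 (71.9% to 80.4%) and 246% in SW620 (139% to 469%), so the intervals lay on opposite sides of 100%. The fit to both lines gave a log2 fold change of -0.11 (edgeR, adjusted p = 0.96), and DESeq2 gave 0.41 (adjusted p = 1.00), a change of sign. CDKN1B, which encodes p27, was at 25.3, 32.1, 20.2 and 21.5 CPM in SW480 control, SW480 knockdown, SW620 control and SW620 knockdown. It was at 127% of control in SW480 (105% to 153%) and 107% in SW620 (85.2% to 134%), and the log2 fold change of 0.23, with an interval of -0.11 to 0.56, did not pass (edgeR, adjusted p = 0.83).

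**Figure D2:**
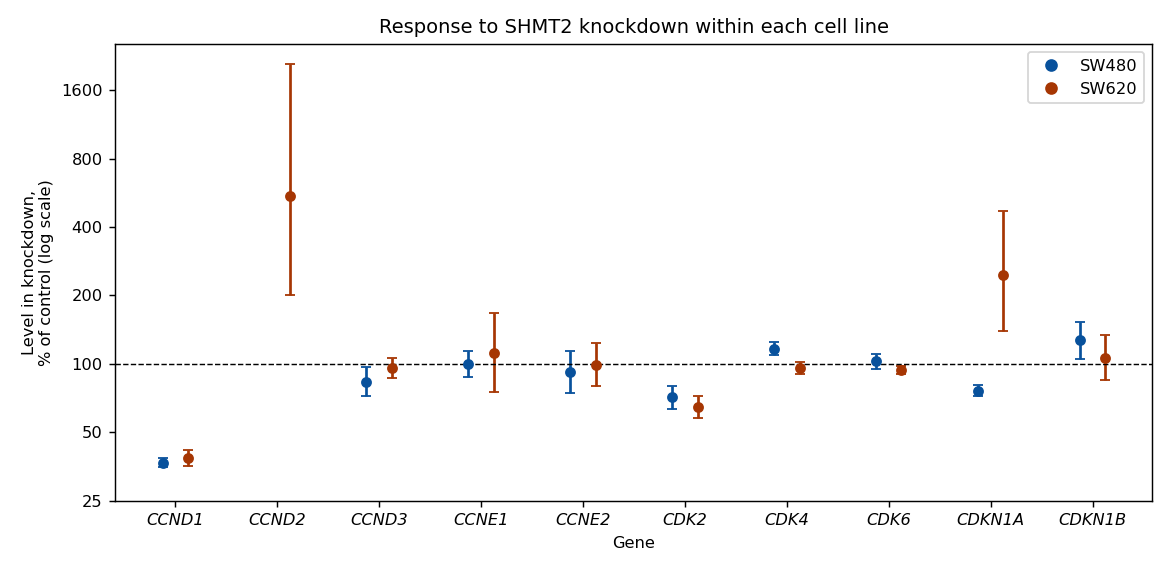
Level in the knockdown library as a percent of the control library of the same line, on a log scale, with exact 95% binomial intervals for counting error. The dashed line marks 100%. CCND1 lies at 36.8% and 38.7% and CDK2 at 71.5% and 64.7%, below the line in both SW480 and SW620, while CDKN1A lies below it in SW480 and above it in SW620. CCND2 has no point in SW480, where it had at most 1 count.

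In all, 2 of the 9 genes tested were lower and 0 were higher in knockdown at an adjusted p under 0.05 in edgeR, against 1.17% of all genes tested that were lower and 0.492% that were higher. The unadjusted p gave the same counts, 2 and 0, against 4.91% lower and 4.15% higher among all genes. DESeq2 called 1 gene lower, CCND1, and 0 higher, against 21 lower and 5 higher over all 14024 genes. It gave no adjusted p for CCNE1, CCNE2 and CDKN1B, so these could not be called. By western blot, the study reported less CCND1 and CDK2 protein and more p27 protein after knockdown. It also measured the CCND1 transcript by qPCR. Protein and RNA are unlike measures. The study's list of genes lowered on knockdown holds CDK2 but not CCND1. As these genes were known from the study, the counts are not independent evidence of a direction.

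The responses of the lines were compared by the difference of their log2 ratios, SW620 minus SW480, whose interval covers counting error only, because no degree of freedom was left to test an interaction. For CCND1 the difference was 0.07 (-0.06 to 0.21) and for CDK2 it was -0.14 (-0.37 to 0.09), so neither was resolved from 0 at this depth. For CDK4 it was -0.28 (-0.41 to -0.15), and for CDKN1A it was 1.62 (0.80 to 2.44). The intervals of CCND3, CCNE1, CCNE2, CDK6 and CDKN1B all held 0. CDKN1A and CDK4 were thus the 2 genes whose responses differed between the lines by more than the counting error, and the spread between cultures is unknown.

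Differences between the cell lines reached much larger sizes than those on knockdown. SW620 was compared with SW480 over both treatments in the same edgeR fit, and the effect is that of 1 pair of lines. CDKN1A was lower in SW620, with a log2 difference of -6.01 (SE 0.16, adjusted p = 6.82e-284), a fitted 64.4-fold gap. The ratio of SW480 to SW620 was 147 in the controls (87.6 to 270) and 45.5 in the knockdown libraries (36.6 to 57.2). CCNE1 was 8.26-fold lower in SW620 (log2 -3.05, SE 0.18, adjusted p = 1.27e-63 in edgeR), and CCND1 was 4.26-fold lower (log2 -2.09, SE 0.11, adjusted p = 6.18e-81 in edgeR). For CCND1 the gap between the lines was wider than the fall on knockdown, and SW480 knockdown, at 349 CPM, was still above SW620 control, at 217 CPM.

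CDK6 and CCND3 were higher in SW620. CDK6 was 3.82-fold higher (log2 1.93, SE 0.11, adjusted p = 1.77e-69 in edgeR), and the ratio of SW620 to SW480 was 3.98 in the controls and 3.66 in the knockdown libraries. CCND3 had a log2 difference of 0.97 (SE 0.13, adjusted p = 1.31e-12 in edgeR). CDKN1B was lower in SW620 by a smaller margin, with a log2 difference of -0.46 (SE 0.17, adjusted p = 0.013 in edgeR), and DESeq2 gave an adjusted p of 0.25. CCNE2 (log2 -0.07, adjusted p = 0.73), CDK2 (-0.05, adjusted p = 0.75) and CDK4 (0.20, adjusted p = 0.098) did not pass edgeR's test. Thus 4 of the 9 genes were lower and 2 were higher in SW620, against 31.3% and 32.3% of all genes tested. With so many genes called, these counts do not set the G1 genes apart from the rest.

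**Figure D3:**
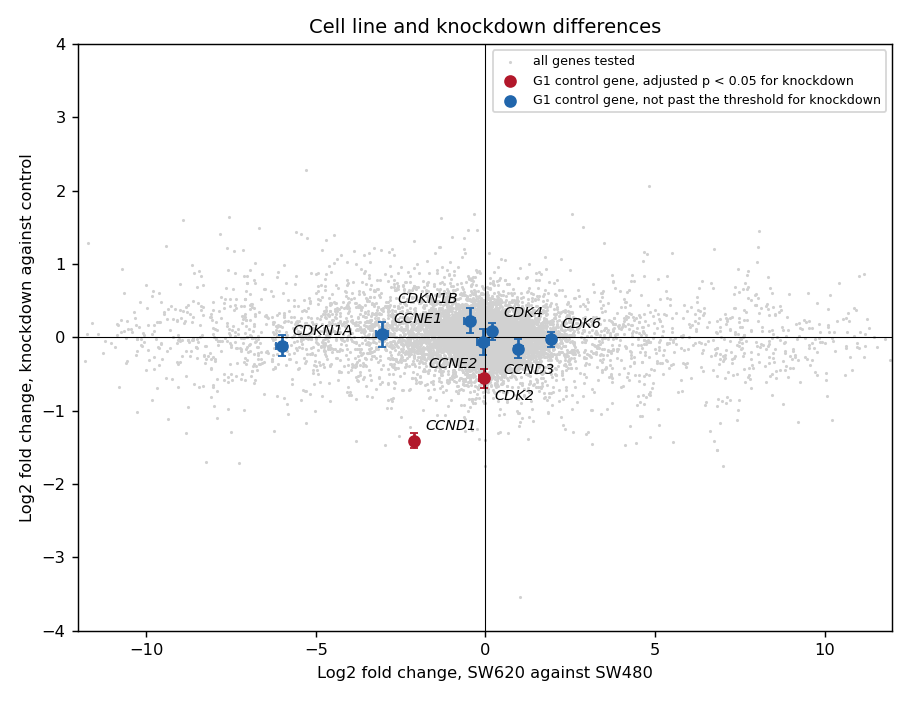
Log2 fold change between the cell lines on the horizontal axis and between knockdown and control on the vertical axis, for all genes tested (grey) and the 9 G1 control genes tested (coloured, with bars of 1 SE). CCND1 lies low and to the left at -2.09 and -1.41, CDK2 lies low near the vertical line, and CDKN1A lies far to the left near 0 on the vertical axis. Another 9 genes lie outside the horizontal range.

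Levels of different genes were compared as CPM per kilobase, with the length of the longest protein-coding transcript of GENCODE 29. In SW480 control the order from the top was CCND1 (220 CPM per kilobase), CDKN1A (167), CDK4 (102), CDK2 (40.0), CCNE1 (28.6), CCND3 (22.5), CDK6 (13.2), CDKN1B (9.52), CCNE2 (7.22) and CCND2 (0.016). In SW480 knockdown CCND1 had dropped to 81.0, behind CDKN1A at 127 and CDK4 at 119, whose counting intervals overlapped. The lower part of the order was the same except that CDK2 and CCNE1, both at 28.6, and CDK6 and CDKN1B, at 13.6 and 12.1, could not be told apart by their counting intervals.

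In SW620 control CDK4 led at 129 CPM per kilobase, followed by CDK6 at 52.7 and CCND1 at 50.4, which overlapped. CCND3 at 41.1 and CDK2 at 40.6 came next and overlapped too, while CDKN1A, second in SW480 control, was at 1.13. In SW620 knockdown CDK4 (124), CDK6 (49.7), CCND3 (39.4) and CDK2 (26.3) stood above CCND1 at 19.5. With the merged exons of each gene as the length, CCND1 at 17.4 stood above CCND3 at 16.3 and CDK2 at 15.5 in that library. CCND1 therefore had rank 1, 3 and 3 of the 10 genes in SW480 control, SW480 knockdown and SW620 control with either length, and in SW620 knockdown rank 5 by transcript length and 3 by merged exons. Other places in the middle of the order, such as those of CCND3 and CDK6 in SW480, also changed with the length.

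The shares within each family followed from these levels. CCND1 made up 90.7% of the D cyclin level per length in SW480 control, 81.2% in SW480 knockdown, 55.0% in SW620 control and 32.7% in SW620 knockdown. With the merged exons of each gene as the length, these shares were 95.5%, 90.3%, 72.5% and 50.8%. CCND3 then had 47.6% in SW620 knockdown, so which of CCND1 and CCND3 leads there depends on the length used. CCNE1 was 79.8% and 81.1% of the E cyclin level in SW480 and 32.8% and 35.5% in SW620. CDKN1A was 94.6% and 91.3% of the summed level of CDKN1A and CDKN1B in SW480, and CDKN1B was 87.0% and 74.4% of it in SW620. CDKN1C, a further CIP/KIP gene, was not in this sum. Its CPM was 8.12, 9.20, 3.85 and 4.01 in SW480 control, SW480 knockdown, SW620 control and SW620 knockdown. Among the kinases, CDK6 took 8.5% and 8.4% of the level in SW480 against 23.7% and 24.9% in SW620, and CDK2 took 25.8% and 17.8% in SW480 control and knockdown against 18.2% and 13.1% in SW620. In both lines the shares of CCND1 and CDK2 were smaller in knockdown than in control.

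**Figure D4:**
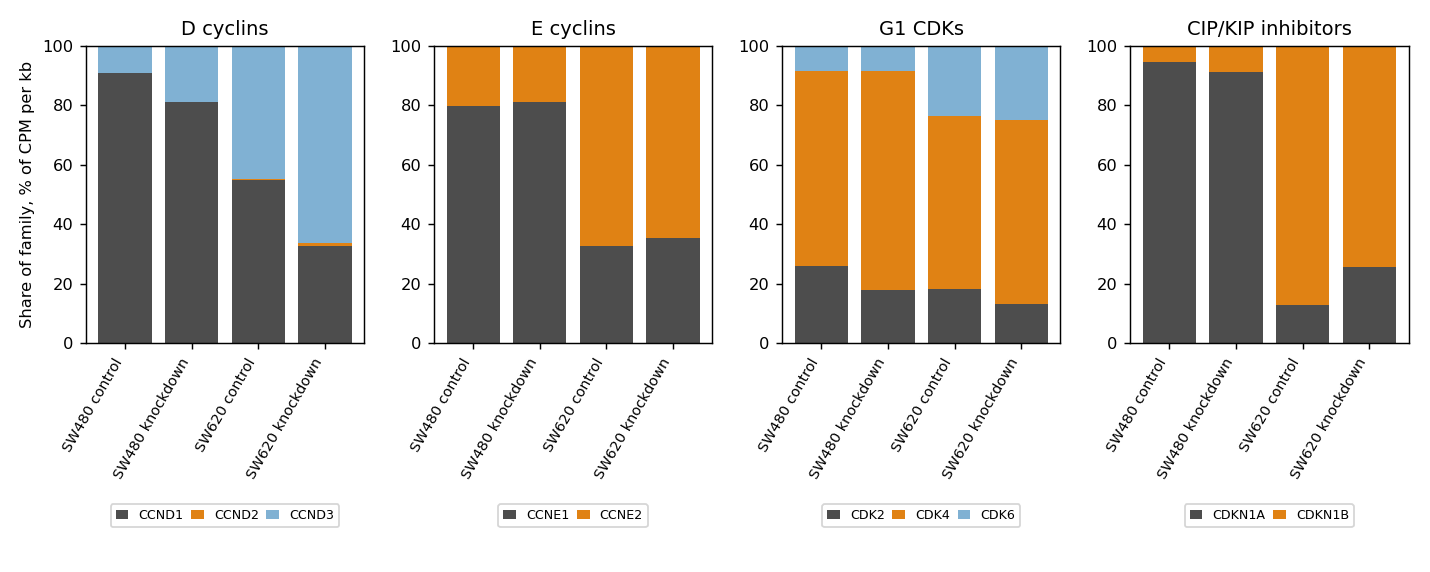
Share of each gene in the summed level (CPM per kilobase) of its family, in percent, for the D cyclins, E cyclins, G1 CDKs and CIP/KIP inhibitors in each library. By transcript length, CCND1 makes up 90.7% of the D cyclin level in SW480 control and 32.7% in SW620 knockdown. Of CDKN1A and CDKN1B, the higher is CDKN1A in SW480 and CDKN1B in SW620. CDKN1C is not part of the CIP/KIP sum.

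Genes that act with the G1 cyclins and CDKs were read from 7 lists in the same edgeR fit, as counts and medians beside those of all genes tested, whose median log2 fold change was 0.01. Among 14 E2F target genes of the G1/S transition, 4 fell on knockdown at an adjusted p under 0.05 and 0 rose. Of all genes tested, 1.17% fell and 0.492% rose at that threshold. The median of the 14 was -0.35. UHRF1, a DNA methylation cofactor, fell by 1.76 on the log2 scale (adjusted p = 3.80e-43 in edgeR). The replication licensing factor CDC6 fell by 0.48, the polymerase clamp PCNA by 0.42 and the thymidine kinase TK1 by 0.47 (adjusted p = 0.0092, 0.0037 and 0.0040 in edgeR). All 14 were lower in both lines, against 24.7% of all genes tested. At an unadjusted p under 0.05, edgeR had 12 lower, against 4.91% of all genes tested. After adjustment DESeq2 called 2 lower, against 21 over all 14024 genes. UHRF1 was picked by the study from these libraries. The study's own list of genes lowered on knockdown holds CDC6, PCNA and TK1, along with others of the 14, but not UHRF1. UHRF1 and the genes on that list are not independent evidence of the direction of the 14.

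Of the 13 pocket proteins and E2F-DP factors, which hold back or carry out this transcription, E2F1 fell by 0.48 on the log2 scale (adjusted p = 0.047 in edgeR) and 0 rose, and the median was -0.14. Among 5 tested of 7 other cyclins, CDKs, CDC25A and the WEE1 family, CDK1, the mitotic kinase, fell by 0.43 (adjusted p = 0.041 in edgeR), and the median was -0.34. Of 27 transcription factors known to act on CCND1, CDKN1A or CDKN1B, FOSL2, an AP-1 subunit, fell (log2 -0.64, adjusted p = 0.036 in edgeR), with -1.11 in SW480 and -0.09 in SW620, and the median was -0.05. DESeq2 called 0 genes of these 3 lists, and at an unadjusted p under 0.05 edgeR had 3, 4 and 3 of their genes lower and 0, 0 and 2 higher. Among all genes tested, 1.17% were lower and 0.492% higher at the adjusted threshold and 4.91% and 4.15% at the unadjusted one.

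The other lists had 0 genes past the adjusted threshold in edgeR or DESeq2. Among the 5 INK4 inhibitors and CDKN1C, whose median was -0.21 and of which 1 had an unadjusted p under 0.05, the CDK4 and CDK6 inhibitors CDKN2D and CDKN2A had log2 fold changes of -0.66 and -0.21. The list of the CDK-activating kinase and CDC37, a co-chaperone of CDK4, held 4 genes and had a median of -0.10, with -0.20 for CDK7 and -0.11 for CDC37, and 0 passed the unadjusted threshold. The 16 ubiquitin ligases and cofactors that degrade G1 cyclins, p21 and p27 had a median of -0.02, and 2 had an unadjusted p under 0.05, DTL and UBAC1, at -0.30 each.

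**Figure D5:**
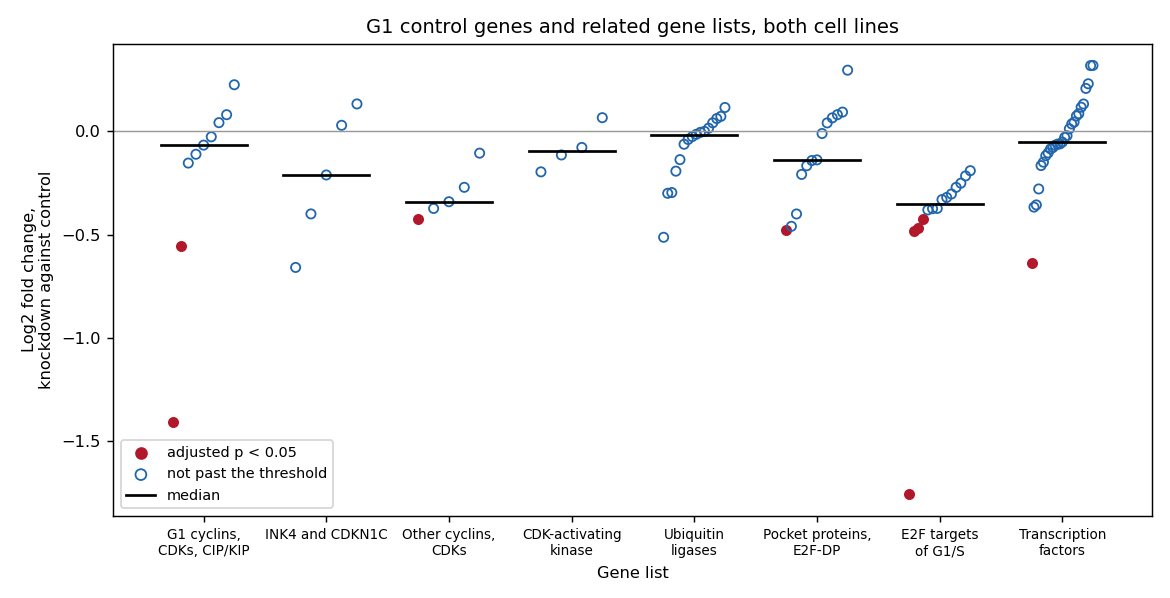
Log2 fold change of knockdown against control over both cell lines for the tested genes of each list, ordered by value within a list, with a bar at the median. Filled points passed an adjusted p of 0.05 in edgeR. CCND1 at -1.41 and UHRF1 at -1.76 are the lowest points, and the 14 E2F targets all lie below 0.

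Markers of the cells were read beside these results. Of 9 colorectal epithelial markers tested, the keratins KRT8 and KRT18 fell by 0.34 each on the log2 scale and E-cadherin, CDH1, rose by 0.45 (adjusted p = 0.0041, 0.0054 and 0.021 in edgeR), while DESeq2 called 0 of the 9. The summed level of the 12 markers was 7014 CPM in SW480 control, 5400 in SW480 knockdown, 10560 in SW620 control and 9571 in SW620 knockdown. For 13 markers of immune, endothelial and fibroblast cells the sums were 34.0, 27.9, 13.4 and 12.9 CPM. Of these, 3 were tested, CD68, VWF and COL1A1, and 0 passed, with 1 at an unadjusted p under 0.05 and 0 by DESeq2. The part of these marker shifts in the results for the G1 genes was not tested.

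The genes whose pattern over the 4 libraries was most like that of CCND1 were found by the root mean square difference of log2 CPM after centring each gene. Out of 14023 genes the nearest were FAM46B (0.187), TEX14 (0.211), SLC25A30-AS1 (0.339), BATF3 (0.358) and PLSCR4 (0.380). All were scarce transcripts. FAM46B was the most abundant of them, at 15.8 CPM in SW480 control, 6.79 in SW480 knockdown, 3.12 in SW620 control and 0.966 in SW620 knockdown. It passed edgeR's test for knockdown (adjusted p = 0.0060). TEX14, SLC25A30-AS1, BATF3 and PLSCR4 did not (adjusted p = 0.35, 0.75, 0.57 and 0.88 in edgeR), and TEX14 was at only 0.074 CPM in SW620 knockdown. Among the G1 genes the nearest was CCNE1, at 0.876 and rank 1167, and the farthest was CDKN1A, at 2.31 and rank 13133.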

How the data were processed

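The authors deposited unnormalized read counts for the 4 libraries as 1 table, by gene symbol. The submitters' processing notes name Bowtie 0.12.2 and hg18, and the labels give Illumina TruSeq RNA as the library kit. The study calls the data RNA-seq in its results and data statement, while its methods section describes an Agilent microarray. The counting program, annotation and use of strand are not given in the sources used here. In 28 rows symbols had become dates (0.217% of counts). These rows were kept.

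Columns were matched to samples by title. Genes that reached 10 counts in 2 or more libraries were tested with edgeR 4.0.16 (R 4.3.3; TMM, quasi-likelihood, terms for cell line and treatment, two-sided, Benjamini-Hochberg over 14024 genes). The line pairs the libraries, since both come from the same cell line. Their deviations from the treatment means had a correlation of 0.961 across genes, which are not independent replicates. With 1 library per line and treatment, this value only compares the line difference in control with that in knockdown. It cannot test a pairing of cultures. In this fit the 1 residual degree of freedom reflects how far the knockdown response differed between the cell lines. The lines thus stand in for replicates. P-values rest on this difference and on a dispersion shared across genes, and they measure no spread between cultures. Log2 values for one line had a prior count of 2. Intervals on a level (Poisson) or on a ratio of levels within a line or treatment (Clopper-Pearson) are exact at 95% and cover counting error only. Intervals of a fitted log2 fold change, and of the difference of the responses, are approximate. DESeq2 1.42.0, other size factors and filters, thinning and each line left out were alternatives. Gene lengths and positions are those of GENCODE 29 (GRCh38), which need not match the authors' annotation. The statistics were tested on simulated counts.

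The members and lists were chosen with earlier results of these data known. Genes named outside the 10 are SHMT2, those of each list past the adjusted threshold or else the 2 of smallest p, and the 5 of most similar pattern to CCND1. Genes that overlap a member on the opposite strand, markers at or near 0 counts, COL1A1 and CDKN1C were named outside this rule, after their values were seen. The same holds for the factors FOSL1, EGR1, ETS1, FOS, JUN, JUNB, JUND and LEF1.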

Additional observations from a re-analysis of the deposited data

Results flagged for a closer look

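The knockdown library lay on opposite sides of its control in the cell lines for 4 of the 9 genes tested, against 45.6% of all genes tested, so this share was no higher than that of the other genes. The count was 3 with DESeq2 size factors or library totals. The difference between the lines was not tested, since each line has 1 library per condition. CDKN1A had a log2 ratio of -0.39 in SW480 and 1.23 in SW620, and its SW620 value rests on 14 and 85 counts. CDK4 had 0.22 in SW480 and -0.059 in SW620. CDK6 had 0.036 in SW480 and -0.083 in SW620. CCNE1 had -0.00088 in SW480 and 0.15 in SW620. The sign in SW480 depended on the scaling for CCNE1, which was at 0.0021 with DESeq2 size factors and 0.040 with library totals, and on depth for CDK6, which was at -0.041 after thinning. For CDK6 and CCNE1 the interval of the difference between the lines holds 0.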

How the results depend on the processing

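The fall of CCND1 kept its call, at -1.39 to -1.42 on the log2 scale, under other size factors, library totals, both filters, DESeq2 and thinning to the smallest total. The number of the 9 genes lower on knockdown was 2. It was 1 with a filter of 50 counts or with DESeq2, which gave no adjusted p for CCNE1, CCNE2 and CDKN1B. With no replicate block, that is with no cell line term, it was 0. Over all genes, 164 were lower and 69 higher. With library totals these were 88 and 37, with the filter of 50 counts 54 and 15, with DESeq2 21 and 5, and without the block 0 and 0. Between the lines, 4394 and 4532 genes were lower and higher in SW620, and DESeq2 gave 2826 and 2680. The fold change of CCNE1 on knockdown turned to -0.071 and that of CCNE2 to 0.0080 after thinning, and that of CDKN1A turned to 0.41 in DESeq2. None of these 3 had passed the test. The cause was not tested. Leaving out either line left no residual degree of freedom. Without SW620 (replicate 1) and without SW480 (replicate 2), the values were -1.44 and -1.37 for CCND1, -0.48 and -0.63 for CDK2, 0.22 and -0.06 for CDK4 and -0.39 and 1.23 for CDKN1A. With 1 library per group, the spread between cultures is unknown, and CCND2 in both lines, CDKN1A in SW620 and CCNE1 in SW620 are limited by counts under 100 in each library.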

Other observations

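Of the 27 transcription factors known to act on CCND1, CDKN1A or CDKN1B, 18 lay in opposite directions in the cell lines, or 66.7%, against 45.6% of all genes tested. Another 3 were lower and 5 were higher in both lines, and LEF1 was at 0 counts in SW480. The next 3 genes are among the widest differences and were chosen after their values were seen. FOSL1, an AP-1 subunit, was at 255 CPM in SW480 control and 109 in SW480 knockdown, and at 48.4 and 76.3 CPM in SW620, log2 ratios of -1.22 and 0.65. EGR1 had log2 ratios of -0.73 in SW480 and 0.57 in SW620, and ETS1 had -0.65 and 0.65. Among other AP-1 subunits, FOS (-0.24 and 0.44) and JUNB (-0.40 and 0.15) lay in the same directions as FOSL1 at smaller sizes. So did JUN (-0.15 and 0.01) and JUND (-0.04 and 0.14), both nearer to no change. FOSL2 was lower in both lines, at -1.11 and -0.09. FOS had 34 to 115 counts in the libraries. The median over the list was -0.17 in SW480 and 0.14 in SW620. Each line has 1 library per condition, so the difference between them was not tested.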
